A study of Homo sapiens with 28 samples.

Results

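The 28 genes described here make cholesterol and its prenyl precursors, control that synthesis through the SREBP transcription factors, or move sterols inside the cell. They were taken from a list of gene names, with no threshold on their values. The list was chosen with earlier results of these data known. All 28 were present among the 19050 genes of a table of CRISPR guide counts and among the 25807 symbols of a table of RNA counts, and all 28 passed the filters of both tests. By role they fell into 8 genes of the mevalonate branch, 11 of the sterol branch, 7 of SREBP control and 2 of sterol transport.

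Both assays were made in U2OS, a human osteosarcoma cell line. In the pooled screen, U2OS cells that were p53 KO or p53 WT carried a library of knockout guides, and guides were counted in genomic DNA after 96 h with 5 µM etoposide, after 96 h without it, and at the start (T0, 0 h). Etoposide blocks topoisomerase II and leaves breaks in DNA. The 96 h cells without drug are titled untreated, while the design text names DMSO, the solvent, and they are called DMSO here. For the RNA, p53 WT U2OS cells were kept for 8 h in conditioned medium, which other cells had been grown in. The donors were p53 KO cells given 31.6 µM etoposide, p53 KO cells given DMSO, p53 WT cells given 31.6 µM etoposide or p53 WT cells given DMSO, and a last group of recipients was taken at T0 (0 h). The recipients had p53 in every RNA library, so KO and WT name the donor of the medium there. Whether the KO line is 1 clone, and whether the etoposide media still held drug, is not given in the sources used here, and no RNA from KO cells was measured against which the knockout could be checked.

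The screen had 6 groups of 3 libraries (A, B and C) with totals of 30437296 to 48230735 guide counts, and the RNA had 5 groups of 2 libraries (A and B) with totals of 16825669 to 20290764 counts. The labels do not say whether a group's libraries are separate cultures. All p-values thus measure the spread between these libraries, which may be technical. Statements below that the libraries of 2 groups did not overlap describe single genes, most of them called, and add no support to the test. The share of all genes with such groups was not computed. The pair of KO DMSO medium libraries differed most, with a chi-square per degree of freedom of 12.8 over genes, against 1.90 to 5.09 in the other RNA pairs. Of the osteoblast lineage markers, COL1A1 (7034 to 10140 CPM, counts scaled to library size) and SPARC (1806 to 2227 CPM) were high in all RNA libraries, RUNX2 and ALPL were present, and SP7, BGLAP and IBSP stayed at or under 0.309 CPM. The blood marker PTPRC reached at most 1.40 CPM and the endothelial marker PECAM1 at most 0.103 CPM. Of the epithelial markers, KRT8 (738 to 997 CPM) and KRT18 (420 to 775 CPM) were high in all RNA libraries, while EPCAM reached at most 2.74 CPM. RNA from a bulk culture cannot tell apart fewer cells of a kind and less RNA per cell.

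Cholesterol is built from acetyl-CoA. The mevalonate branch makes isoprenoid units and joins them into farnesyl and geranylgeranyl diphosphate, which also serve protein prenylation, and the sterol branch closes squalene into lanosterol and trims it to cholesterol. When sterols in the endoplasmic reticulum are low, SCAP carries the SREBP precursors to the Golgi, where the proteases encoded by MBTPS1 and MBTPS2 release the part that enters the nucleus and switches on these genes. When sterols are plentiful, the INSIG proteins hold SCAP back. SREBF2 encodes SREBP2, which is known mainly for cholesterol genes, and SREBF1 encodes SREBP1, known mainly for fatty acid genes.

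The promoters of 5 of these genes are shown. SREBF1 and MVK had the lowest and NPC1 and STARD4 the highest fold changes of the 28 in KO etoposide medium against KO DMSO medium. SREBF2 was added after the search. Among the 25 genes with a window, its window alone held the letters of a sterol regulatory element. Sequences are from RefSeq (GRCh38.p14) and cover the 250 bases before the transcription start, read 5′ to 3′ on the gene's strand. The windows are chr17:17836987-17837236 (minus strand), chr22:41832855-41833104 (plus strand), chr12:109573544-109573793 (plus strand), chr5:111512536-111512785 (minus strand) and chr18:23586507-23586756 (minus strand). Capitals mark matches on either strand to TCACNCCAC (sterol regulatory element), CCAAT (the letters of NF-Y) and GGGCGG (those of Sp1), and no match shown overlaps another.
SREBF1: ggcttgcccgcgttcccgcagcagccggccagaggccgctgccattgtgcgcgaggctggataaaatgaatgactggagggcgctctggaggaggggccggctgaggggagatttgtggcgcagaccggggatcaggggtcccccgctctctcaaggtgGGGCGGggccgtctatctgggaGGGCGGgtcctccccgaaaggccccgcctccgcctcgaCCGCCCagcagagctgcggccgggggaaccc
SREBF2: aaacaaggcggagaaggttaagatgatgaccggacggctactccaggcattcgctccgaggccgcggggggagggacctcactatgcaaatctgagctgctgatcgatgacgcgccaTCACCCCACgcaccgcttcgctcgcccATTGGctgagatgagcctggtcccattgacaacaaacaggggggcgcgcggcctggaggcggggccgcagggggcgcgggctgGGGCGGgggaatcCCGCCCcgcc
MVK: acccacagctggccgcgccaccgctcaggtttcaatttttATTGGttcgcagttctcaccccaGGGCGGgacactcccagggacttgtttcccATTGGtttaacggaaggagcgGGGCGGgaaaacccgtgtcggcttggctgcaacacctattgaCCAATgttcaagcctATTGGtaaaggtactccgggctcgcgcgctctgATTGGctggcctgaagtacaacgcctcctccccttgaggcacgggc
STARD4: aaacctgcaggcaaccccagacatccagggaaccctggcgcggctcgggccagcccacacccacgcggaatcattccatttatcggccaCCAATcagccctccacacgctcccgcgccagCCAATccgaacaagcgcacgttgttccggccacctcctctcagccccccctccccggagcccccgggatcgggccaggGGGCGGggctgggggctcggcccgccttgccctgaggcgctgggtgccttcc
NPC1: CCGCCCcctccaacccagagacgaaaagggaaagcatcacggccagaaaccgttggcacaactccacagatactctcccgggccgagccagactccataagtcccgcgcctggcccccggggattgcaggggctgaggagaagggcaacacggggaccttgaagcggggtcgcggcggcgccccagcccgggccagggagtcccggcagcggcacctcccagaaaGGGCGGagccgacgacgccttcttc
The RefSeq table matched 25 of the 28 genes, with 33 windows, and SQLE, FDFT1 and ACAT2 were not used here. CCAAT was found in 19 of the 33 windows (57.6%), against 32% of all 35116 promoter windows of that length. GGGCGG was found in 28 of 33 (84.8%), against 42.6% of all. TCACNCCAC was found in 1 of 33 (3.03%), against 0.883% of all. The SREBF1 window shown had 3 GGGCGG matches and no CCAAT, while the MVK window had 5 CCAAT matches and 2 GGGCGG. A match is a run of letters and not a shown binding site. Elements that differ from TCACNCCAC in a letter, or lie outside the window, were not searched for.

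In cells at T0, transcript levels per length spanned a wide range. On the scale of CPM per kilobase of deposited transcript length, SREBF2 was highest (91.4 ± 1.05, SD, n = 2), followed by FDPS (73.4 ± 3.86), DHCR7 (67.1 ± 1.13) and SQLE (66.1 ± 0.763). The libraries of DHCR7 and SQLE overlapped. SREBF1 stood at 57.7 ± 0.586, and the Golgi protease gene MBTPS1 (54.3 ± 1.23) far above its partner MBTPS2 (3.17 ± 0.0813). INSIG2 was lowest at 1.61 ± 0.126, while INSIG1, the form that SREBPs themselves are known to induce, was at 8.06 ± 0.425. Besides DHCR7 and SQLE, the T0 libraries of neighbours in the order overlapped for ACAT2 and MSMO1, STARD4 and PMVK, INSIG1 and NPC1, and SC5D and TM7SF2, and for no other neighbours.

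**Figure D1:**
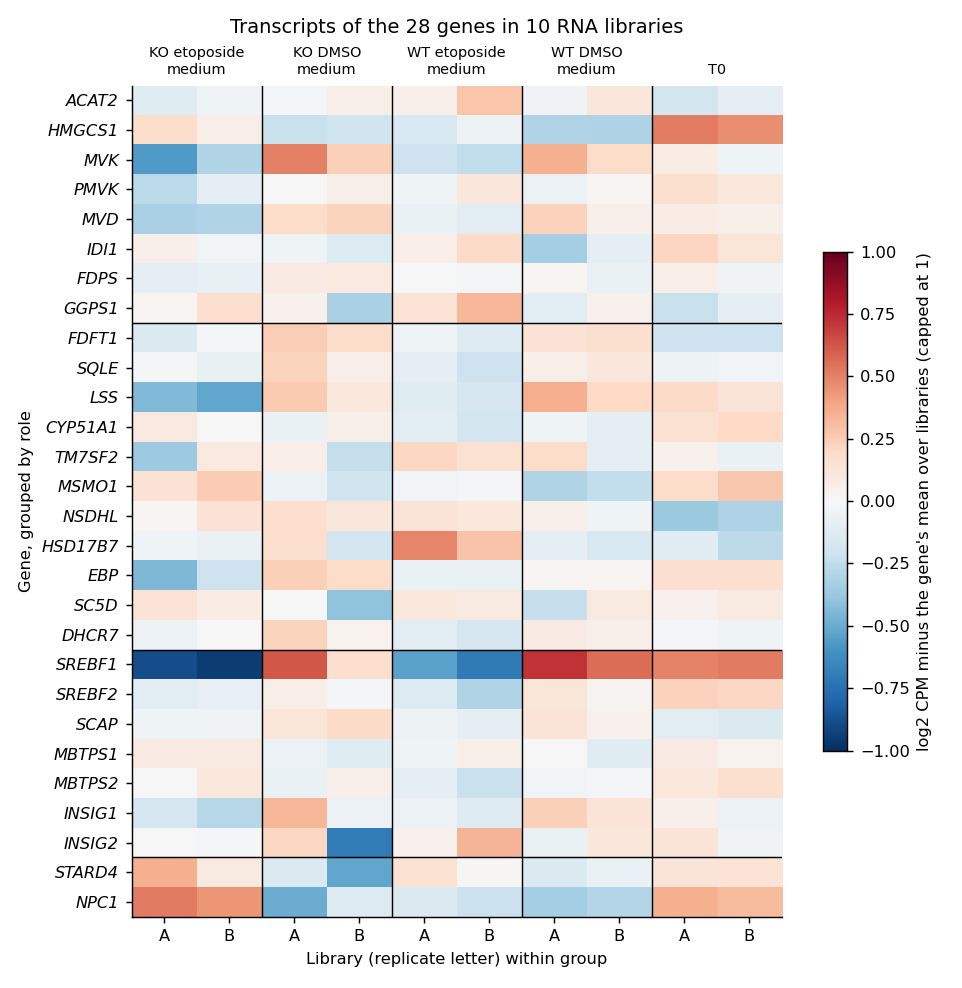
Transcripts of the 28 genes (rows, ordered by role, lines between roles) in the 10 RNA libraries (columns, by group), coloured by log2 CPM minus the gene's mean over all libraries, with colours capped at 1. SREBF1 is low in the 4 etoposide media libraries and NPC1 is high in KO etoposide medium and at T0.

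The first question for the RNA was how medium from etoposide-treated cells changed these genes against medium from DMSO-treated cells. SREBF1 fell most of the 28, to 0.398-fold in KO medium and 0.418-fold in WT medium. LSS, MVK, MVD, FDFT1 and SQLE fell in both media, and HMGCS1 and MSMO1 rose in both. NPC1 and STARD4 were called higher in KO medium, and IDI1 and HSD17B7 in WT medium. In KO medium 4 members rose and 9 fell, where edgeR's quasi-likelihood test called 18.8% of 15391 genes higher and 18.5% lower at an adjusted p under 0.05. In WT medium 4 rose and 8 fell, where 16.1% of all genes were called higher and 18.5% lower. In either direction that is 46.4% of the members in KO medium, against 37.3% of all genes, and 42.9% in WT medium, against 34.6% of all genes; no test of that gap was made. The median log2 fold change of the members was −0.08 in KO medium (−0.01 over all genes) and 0.04 in WT medium (0.01 over all genes). These 2 comparisons share no library. They had 6 members lower in both, 2 higher in both and 0 in opposite directions, which is 61.5% of the KO calls and 66.7% of the WT calls, beside 59.2% and 63.9% over all genes.

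**Figure D2:**
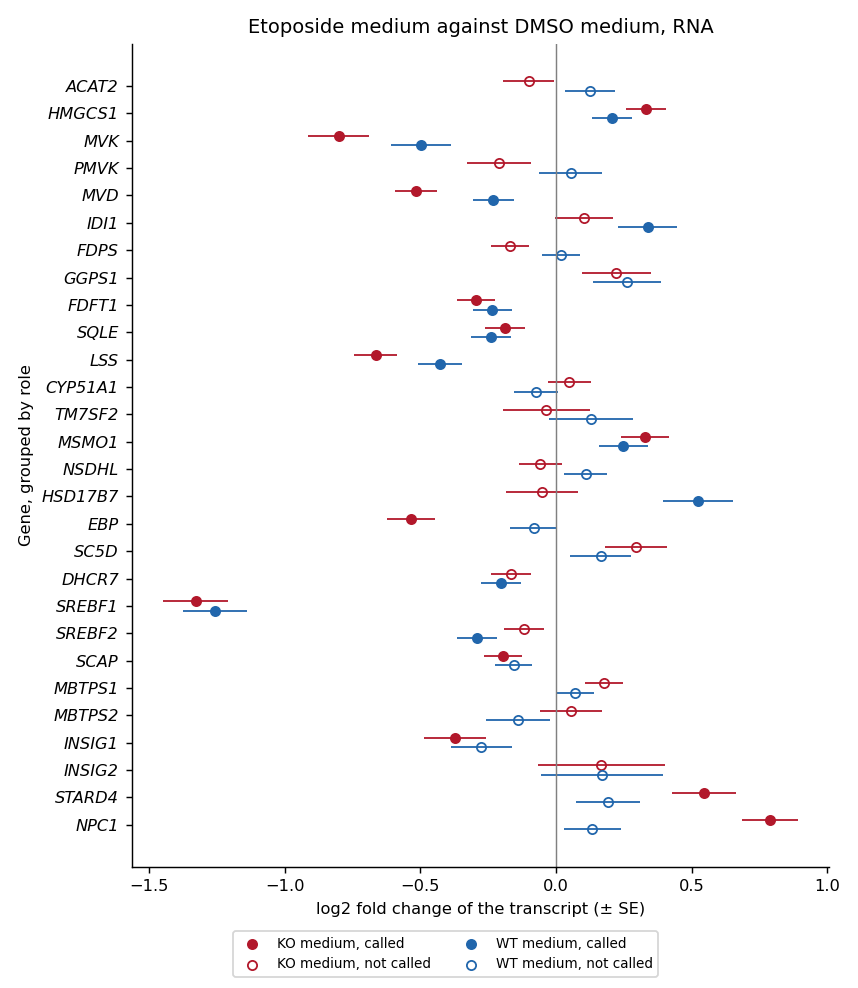
Log2 fold change (x axis, with bars of 1 SE) of the 28 transcripts in etoposide medium against DMSO medium, for medium of p53 KO donors (red) and p53 WT donors (blue). Filled points passed edgeR's quasi-likelihood test at an adjusted p under 0.05, and SREBF1 lies far to the left in both media.

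In the mevalonate branch 1 of 8 genes rose and 2 fell in KO medium, and 2 rose and 2 fell in WT medium. MVK, the kinase that phosphorylates mevalonate, had 17.9 and 21.5 CPM in libraries A and B of KO etoposide medium, against 37.5 and 31.3 CPM in KO DMSO medium. It had 23.0 and 22.4 CPM in WT etoposide medium, against 34.0 and 30.0 CPM in WT DMSO medium. The groups did not overlap in either medium, and the log2 fold changes were −0.80 ± 0.11 (SE, adjusted p = 7.06e-06) and −0.50 ± 0.11 (adjusted p = 0.00134). MVD, which makes isopentenyl diphosphate at the end of the mevalonate steps, had 66.6 and 67.6 CPM in KO etoposide medium, against 94.8 and 97.3 CPM in KO DMSO medium (−0.52 ± 0.08, adjusted p = 1.64e-05). In WT etoposide medium MVD had 79.6 and 77.0 CPM, against 97.7 and 86.2 CPM in WT DMSO medium (−0.23 ± 0.08, adjusted p = 0.0222). HMGCS1, which condenses acetoacetyl-CoA and acetyl-CoA upstream of MVK, moved the other way. It had 123 and 114 CPM in KO etoposide medium, against 93.6 and 95.3 CPM in KO DMSO medium (0.33 ± 0.07, adjusted p = 0.00104), and 98.4 and 106 CPM in WT etoposide medium, against 88.8 and 88.0 CPM in WT DMSO medium (0.21 ± 0.07, adjusted p = 0.0325). IDI1, the isomerase of the C5 units, had 20.6 and 22.4 CPM in WT etoposide medium, against 15.6 and 18.5 CPM in WT DMSO medium (0.34 ± 0.11, adjusted p = 0.0193), and was not called in KO medium (0.10 ± 0.11). ACAT2, PMVK, FDPS and GGPS1, the thiolase, the next kinase and the prenyl diphosphate synthases, passed in neither medium, with values between −0.21 and 0.26. MVD lost its WT medium call without WT DMSO medium A (adjusted p = 0.282) or either WT etoposide library (0.0741 without A, 0.161 without B), and IDI1 without WT DMSO medium A (0.232) or WT etoposide medium B (0.121). HMGCS1 lost its WT medium call without either WT DMSO library (0.11 without A, 0.129 without B) or WT etoposide medium B (0.191), and without the filter on low counts (0.0534).

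In the sterol branch 1 of 11 genes rose and 4 fell in KO medium, and 2 rose and 4 fell in WT medium. LSS, which closes the ring of lanosterol, had 68.9 and 65.2 CPM in KO etoposide medium, against 112 and 101 CPM in KO DMSO medium (−0.66 ± 0.08, adjusted p = 1.17e-06). In WT etoposide medium LSS had 85.8 and 83.3 CPM, against 120.3 and 107 CPM in WT DMSO medium (−0.43 ± 0.08, adjusted p = 0.00024). All 4 etoposide media libraries lay below all 4 DMSO media libraries and both T0 libraries, which had 107 and 102 CPM. EBP, the sterol isomerase, had 31.1 and 36.8 CPM in KO etoposide medium, against 50.1 and 48.1 CPM in KO DMSO medium (−0.53 ± 0.09, adjusted p = 5.81e-05). In WT medium it did not pass, with 40.6 and 40.4 CPM in WT etoposide medium, against 42.8 and 43.0 CPM in WT DMSO medium (−0.08 ± 0.09). The difference between the 2 etoposide effects on EBP missed the threshold (−0.45 ± 0.12, adjusted p = 0.0528).

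Squalene synthase FDFT1 and squalene epoxidase SQLE had smaller losses in both media. FDFT1 had 155 and 170.1 CPM in KO etoposide medium, against 203 and 195 CPM in KO DMSO medium (−0.29 ± 0.07, adjusted p = 0.00254), and 167 and 157 CPM in WT etoposide medium, against 189.6 and 191 CPM in WT DMSO medium (−0.24 ± 0.07, adjusted p = 0.0141). SQLE had 202 and 193 CPM in KO etoposide medium, against 237 and 212 CPM in KO DMSO medium (−0.19 ± 0.07, adjusted p = 0.047), and 189 and 176 CPM in WT etoposide medium, against 213 and 219 CPM in WT DMSO medium (−0.24 ± 0.07, adjusted p = 0.0145). No etoposide library of either gene reached a DMSO library of the same donor. DHCR7, the last reductase of one route to cholesterol, had 169 and 162 CPM in WT etoposide medium, against 193 and 189 CPM in WT DMSO medium (−0.20 ± 0.07, adjusted p = 0.0372), and was at −0.17 ± 0.07 in KO medium, which did not pass. MSMO1, a sterol methyl oxidase, rose, with 36.9 and 39.7 CPM in KO etoposide medium, against 32.0 and 29.1 CPM in KO DMSO medium (0.33 ± 0.09, adjusted p = 0.00574), and 32.8 and 32.9 CPM in WT etoposide medium, against 27.1 and 28.1 CPM in WT DMSO medium (0.25 ± 0.09, adjusted p = 0.0366). HSD17B7, a ketosteroid reductase of the same demethylation steps, rose in WT medium, with 16.9 and 14.8 CPM in WT etoposide medium, against 11.3 and 10.8 CPM in WT DMSO medium (0.52 ± 0.13, adjusted p = 0.00331). In KO medium HSD17B7 did not pass (−0.05 ± 0.13). CYP51A1, TM7SF2, NSDHL and SC5D, further enzymes of the branch, passed in neither medium, with values between −0.07 and 0.29.

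Single libraries carried part of these calls. In KO medium SQLE lost its call without KO DMSO medium A (adjusted p = 0.287), KO etoposide medium A (0.0675) or B (0.207), with DESeq2 (0.052) and with only the libraries compared in the fit (0.165), and MSMO1 without KO etoposide medium B (0.0637). In WT medium FDFT1 lost it without WT DMSO medium A (0.0621), B (0.0749) or WT etoposide medium B (0.16), SQLE without WT DMSO medium B (0.0964) or WT etoposide medium B (0.177), and HSD17B7 without WT etoposide medium A (0.0532). DHCR7 and MSMO1 lost their WT medium calls without any 1 of the 4 libraries (0.0835 to 0.237 and 0.0894 to 0.172), and MSMO1 also with DESeq2 (0.0778) and without the filter on low counts (0.0551). LSS in both media and EBP in KO medium kept their calls in all 9 alternatives.

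Of the 7 genes of SREBP control, 3 fell in KO medium and 2 in WT medium, and 0 rose. SREBF1 had 109.7 and 105 CPM in KO etoposide medium, against 312 and 228 CPM in KO DMSO medium (−1.33 ± 0.12, adjusted p = 8.62e-07). In WT etoposide medium it had 141 and 124 CPM, against 335 and 299 CPM in WT DMSO medium (−1.26 ± 0.12, adjusted p = 1.66e-06). The T0 libraries had 287 and 291 CPM, so the etoposide media stood apart from all other libraries, also from the 2 KO DMSO medium libraries that differed from each other. Without KO DMSO medium A the KO value was −1.09 and without B −1.54, and both calls held in all 9 alternatives. The 2 effects on SREBF1 were not called different (−0.07 ± 0.17, an interval of 2 SE on each side from −0.40 to 0.26).

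SREBF2 had 414 and 371 CPM in WT etoposide medium, against 495 and 464 CPM in WT DMSO medium (−0.29 ± 0.07, adjusted p = 0.00354). In KO medium it had 424 and 430.3 CPM with etoposide, against 478 and 449 CPM with DMSO, which did not pass (−0.12 ± 0.07). The WT groups did not overlap, and the WT call was lost without WT DMSO medium A (adjusted p = 0.0593) or WT etoposide medium B (0.105). INSIG1 had 22.2 and 20.3 CPM in KO etoposide medium, against 31.2 and 23.9 CPM in KO DMSO medium (−0.37 ± 0.11, adjusted p = 0.0128), and was at −0.28 ± 0.11 in WT medium (adjusted p = 0.0631). SCAP had 182 and 183 CPM in KO etoposide medium, against 204 and 215 CPM in KO DMSO medium (−0.20 ± 0.07, adjusted p = 0.0297). These calls were small and rested on single libraries. INSIG1 lost its KO call without KO DMSO medium A (−0.17, adjusted p = 0.273) or KO etoposide medium B (0.107), and SCAP without KO DMSO medium B (0.102), KO etoposide medium A (0.0975) or B (0.0908). With only the libraries compared in the fit, INSIG1 was at 0.0545 and SCAP at 0.133. MBTPS1, MBTPS2 and INSIG2 passed in neither medium, and INSIG2, the least abundant, had the widest error (0.17 ± 0.23 in KO medium).

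In sterol transport, NPC1, which exports cholesterol from lysosomes, had 42.0 and 40.0 CPM in KO etoposide medium, against 20.8 and 26.6 CPM in KO DMSO medium (0.79 ± 0.10, adjusted p = 2.81e-06). In WT medium it had 26.6 and 25.2 CPM with etoposide, against 23.3 and 24.0 CPM with DMSO (0.13 ± 0.11, adjusted p = 0.349). STARD4, a soluble sterol carrier, had 31.5 and 26.3 CPM in KO etoposide medium, against 22.4 and 17.2 CPM in KO DMSO medium (0.55 ± 0.12, adjusted p = 0.000889). In WT medium STARD4 had 27.3 and 24.8 CPM with etoposide, against 22.2 and 23.5 CPM with DMSO (0.19 ± 0.12, adjusted p = 0.217). For both genes the etoposide libraries lay above the DMSO libraries of the same donor, and the KO calls held in all 9 alternatives.

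**Figure D3:**
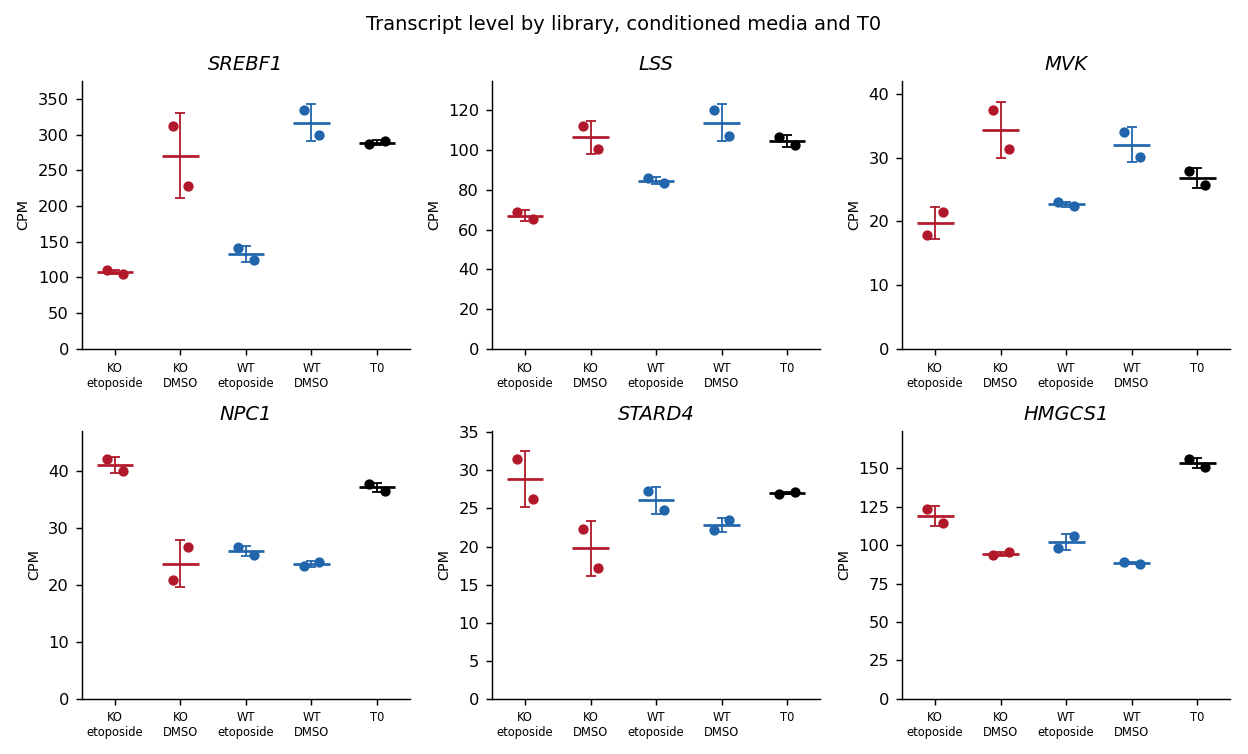
Level (y axis, CPM) of 6 transcripts in each RNA library, with the mean and SD (n = 2) per group, for KO (red) and WT (blue) donors and T0 (black). SREBF1, LSS and MVK are lower in both etoposide media than in the DMSO media of the same donor, and NPC1 in KO etoposide medium (42.0 and 40.0 CPM) lies above all other media.

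The next question was whether the effect of etoposide medium depended on the donor's p53. In the test of the interaction, KO over WT, 1 of the 28 was called, where 2.71% of all genes were. NPC1 differed by 0.65 ± 0.15 (adjusted p = 0.0208), higher in KO medium. The call was lost without KO etoposide medium A (0.60, adjusted p = 0.183), WT etoposide medium A (0.0616) or B (0.136), or WT DMSO medium A (0.0873) or B (0.116), and the value stayed between 0.49 and 0.83 in all 13 alternatives. Next by p came EBP (−0.45 ± 0.12, adjusted p = 0.0528) and HSD17B7 (−0.58 ± 0.19, adjusted p = 0.0953), neither past the threshold. The median difference of the members was −0.05, beside 0.00 over all genes. Leaving out either KO DMSO medium library gave more called members. The share of all genes called in those fits is not given here.

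Set directly against each other, the etoposide media differed at 4 members, with NPC1 and HMGCS1 higher in KO medium and LSS and HSD17B7 lower, where 8.34% of all genes were called higher and 5.56% lower. NPC1 was higher by 0.66 ± 0.10 (adjusted p = 0.000217), with 42.0 and 40.0 CPM in KO etoposide medium, against 26.6 and 25.2 CPM in WT etoposide medium. LSS was lower by −0.33 ± 0.08 (adjusted p = 0.00904), with 68.9 and 65.2 CPM against 85.8 and 83.3 CPM in WT etoposide medium. No library of one medium reached the other for either gene. HSD17B7 had 11.7 and 11.6 CPM in KO etoposide medium, against 16.9 and 14.8 CPM in WT etoposide medium (−0.45 ± 0.13, adjusted p = 0.024), and HMGCS1 123 and 114 CPM in KO etoposide medium, against 98.4 and 106 CPM in WT etoposide medium (0.22 ± 0.07, adjusted p = 0.0466). NPC1 held in all 9 alternatives. LSS lost its call without KO etoposide medium B (0.0878) or WT etoposide medium A (0.0744), HSD17B7 with DESeq2 (0.0709) or without KO etoposide medium A (0.113), B (0.117) or WT etoposide medium A (0.213), and HMGCS1 with DESeq2 (0.0551), the replicate block (0.0537) or without any 1 of the 4 libraries (0.0585 to 0.31). The authors' deposited table holds the same comparison by its values (r = 0.99997 across genes, which are not independent, with the fit here), and lists NPC1 at 0.66 (adjusted p = 1.16e-05) and LSS at −0.34 (adjusted p = 0.00561) as the 2 of the 28 with an adjusted p under 0.05.

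The DMSO media of KO and WT donors differed at 0 of the 28 members in edgeR's test, where 0.903% of all genes were called. At an unadjusted p under 0.05 in that test there was 1 member, beside 3014 of all 15391 genes. It was EBP, with 50.1 and 48.1 CPM in KO DMSO medium, against 42.8 and 43.0 CPM in WT DMSO medium (0.19 ± 0.09, adjusted p = 0.216). DESeq2 called 0 as well. The number of members called changed with which KO DMSO medium library was left out. The share of all genes called in those fits is not given here.

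DMSO media were also set against T0, in comparisons that share the 2 T0 libraries. They use the same DMSO media libraries as the etoposide medium comparisons, so a high or low DMSO group moves both in opposite directions. For KO donors, HMGCS1, MSMO1, NPC1 and STARD4 were lower against T0 and higher with etoposide, and FDFT1, MVK and SCAP the reverse. For WT donors, HMGCS1, MSMO1 and IDI1 did the former and FDFT1 the latter. No member was called in the same direction in both comparisons of a donor. HMGCS1, NPC1 and MSMO1 fell after 8 h in the medium of either donor, and FDFT1, NSDHL and SCAP rose. In KO DMSO medium 4 members rose and 5 fell (5 and 4 under RLE scaling), where 18.1% of all genes were called higher and 18.8% lower. In WT DMSO medium 3 rose and 5 fell, where 17.9% of all genes were called higher and 17.7% lower. Both counts lay near the background.

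HMGCS1 had 93.6 and 95.3 CPM in KO DMSO medium and 88.8 and 88.0 CPM in WT DMSO medium, against 156 and 151 CPM at T0. The log2 fold changes were −0.70 ± 0.07 (adjusted p = 2.17e-07) and −0.80 ± 0.07 (adjusted p = 2.93e-08), and no medium library reached T0. NPC1 had 20.8 and 26.6 CPM in KO DMSO medium and 23.3 and 24.0 CPM in WT DMSO medium, against 37.6 and 36.5 CPM at T0 (−0.64 ± 0.10, adjusted p = 4.97e-05, and −0.65 ± 0.10, adjusted p = 4.3e-05). NPC1 in KO etoposide medium, at 42.0 and 40.0 CPM, thus lay above its T0 libraries as well. MSMO1 had 32.0 and 29.1 CPM in KO DMSO medium and 27.1 and 28.1 CPM in WT DMSO medium, against 38.0 and 40.2 CPM at T0 (−0.36 ± 0.09, adjusted p = 0.00328, and −0.50 ± 0.09, adjusted p = 0.000155).

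NSDHL, which acts beside MSMO1 in sterol demethylation, rose to 60.2 and 58.0 CPM in KO DMSO medium and 55.7 and 52.1 CPM in WT DMSO medium, against 41.5 and 43.3 CPM at T0 (0.48 ± 0.08, adjusted p = 9.57e-05, and 0.35 ± 0.08, adjusted p = 0.0021). FDFT1 had 203 and 195 CPM in KO DMSO medium and 189.6 and 191 CPM in WT DMSO medium, against 148 and 148 CPM at T0 (0.43 ± 0.07, adjusted p = 8.98e-05, and 0.36 ± 0.07, adjusted p = 0.000464). SCAP had 204 and 215 CPM in KO DMSO medium and 205 and 193 CPM in WT DMSO medium, against 173 and 169.9 CPM at T0 (0.29 ± 0.07, adjusted p = 0.00253, and 0.22 ± 0.07, adjusted p = 0.0185). The media libraries of these 3 genes all lay above T0. Called in KO DMSO medium alone were MVK (0.36 ± 0.11, adjusted p = 0.0129), STARD4 (−0.45 ± 0.12, adjusted p = 0.00496) and SREBF2 (−0.19 ± 0.07, adjusted p = 0.0446), and in WT DMSO medium alone IDI1 (−0.38 ± 0.11, adjusted p = 0.0095) and CYP51A1 (−0.25 ± 0.08, adjusted p = 0.0173), with no call between the 2 media. SREBF1 passed in neither (−0.10 ± 0.12 in KO and 0.13 ± 0.12 in WT DMSO medium).

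In KO DMSO medium MSMO1 lost its call without T0 B (0.0525), MVK without KO DMSO medium A (0.118) or T0 B (0.128), STARD4 without KO DMSO medium B (0.0698), and SREBF2 without KO DMSO medium B (0.15), T0 A (0.196) or T0 B (0.145) and with DESeq2 (0.0511), RLE scaling (0.055), no filter (0.0741) or only the libraries compared (0.0824). In WT DMSO medium CYP51A1 lost it without any 1 of the 4 libraries (0.0513 to 0.129), IDI1 without T0 A (0.0982) or WT DMSO medium A (0.153), and SCAP without T0 A (0.0885), T0 B (0.134) or WT DMSO medium A (0.154). Of the 3 epithelial markers, KRT8 and KRT18, which this line expresses, were called lower in WT DMSO medium, and EPCAM was not called. The sum of the 3 markers was 1160 to 1211 CPM there, against 1525 to 1584 CPM at T0. In KO DMSO medium the sum was 1349 to 1774 CPM, with 0 of the 3 called. The part of the markers in these results was not tested.

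Fatty acid genes, many of them known SREBP1 targets, were read from a list of 10. In KO etoposide medium 5 of the 10 were lower than in KO DMSO medium and 0 higher, beside 18.5% of all genes lower and 18.8% higher. In WT etoposide medium 6 were lower than in WT DMSO medium and 0 higher, beside 18.5% of all genes lower and 16.1% higher. The medians were −0.22 in KO medium and −0.26 in WT medium. SCD, the stearoyl-CoA desaturase, was at −0.44 ± 0.07 in KO medium (adjusted p = 3.97e-05) and −0.52 ± 0.07 in WT medium (adjusted p = 6.35e-06). FADS2 (−0.55 ± 0.08 and −0.51 ± 0.08), ACACA (−0.43 ± 0.08 and −0.65 ± 0.08) and ACSL3 (−0.35 ± 0.07 and −0.52 ± 0.07) were called lower in KO and in WT medium. FASN was called in KO medium (−0.21 ± 0.08), and FADS1 (−0.29 ± 0.09) and LPIN1 (−0.24 ± 0.09) in WT medium. Of 11 further genes of sterol transport, storage and efflux, 2 were higher and 2 lower in KO medium, and 3 higher and 2 lower in WT medium, counts near those shares of all genes. The exporter genes of this list did not move together. ABCG1 fell in KO medium (−0.81 ± 0.18, adjusted p = 0.000959) and in WT medium (−1.03 ± 0.17, adjusted p = 5.12e-05). ABCA1, at a low level, was higher, with a mean of 1.58 CPM in KO etoposide medium, against 0.78 CPM in KO DMSO medium. Its mean was 1.90 CPM in WT etoposide medium, against 0.89 CPM in WT DMSO medium. At T0 the libraries of ABCA1 had 1.34 and 2.85 CPM, and the etoposide media libraries lay within that range. RUNX2, an osteoblast lineage marker, fell in the same comparisons, with −1.94 ± 0.14 in KO medium and −1.66 ± 0.14 in WT medium, while ALPL rose (0.80 ± 0.10 and 0.52 ± 0.11). Of the 7 lineage markers, 1 was called higher and 2 lower in KO medium, and 1 higher and 1 lower in WT medium, with SP7, BGLAP and IBSP under the filter. The blood marker PTPRC, near 0 throughout, had 0.0499 and 0.312 CPM in KO etoposide medium, against 0.894 and 0.514 CPM in KO DMSO medium (−1.94 ± 0.67, adjusted p = 0.0278), and was not called in WT medium (−0.77 ± 0.52). The summed level of the lineage markers was 9644 to 10240.4 CPM in KO etoposide medium, against 10670.4 to 12450.3 CPM in KO DMSO medium, and 9034 to 11105 CPM in WT etoposide medium, against 11142 to 11628 CPM in WT DMSO medium. The part of these markers in the results was not tested.

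In the screen, each gene's guides were summed. A lower share of counts means that cells carrying guides against the gene were fewer relative to the other cells of that library. These counts do not give total cell numbers. The 28 genes had 161 guides. The first comparison was etoposide against DMSO at 96 h. In p53 KO cells 4 members were called by edgeR's quasi-likelihood test on summed counts. Guides against SREBF2 were lower than with DMSO, and those against IDI1, HMGCS1 and MVK, all 3 of the mevalonate branch, were higher than with DMSO. Of all 19044 genes, 3.07% were called higher and 1.23% lower. In p53 WT cells 0 of the 28 were called, where 2.24% of all genes were called in either direction. At an unadjusted p under 0.05 in edgeR's test there were 7 members, beside 2481 of all 19044 genes. DESeq2 called 2 members, with its share of all genes not given here. The median of the members was 0.02 in KO cells and −0.01 in WT cells, beside 0.00 in KO cells and 0.00 in WT cells over all genes.

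SREBF2 had 28.2, 32.5 and 30.7 CPM (guides summed) in KO etoposide libraries A, B and C, against 40.7, 38.5 and 36.6 CPM in KO DMSO libraries. The groups did not overlap, and the log2 fold change was −0.34 ± 0.07 (SE, adjusted p = 0.000121). All 5 guides were lower, with log2 fold changes of −0.72 to −0.24, and none passed singly. In WT cells SREBF2 had 31.1, 29.7 and 28.8 CPM with etoposide, against 30.1, 29.4 and 31.4 CPM with DMSO (−0.02 ± 0.07). The KO DMSO libraries also lay above the KO T0 libraries, which had 31.1, 34.7 and 33.1 CPM. The SREBF2 call held in all 14 alternatives, between −0.40 and −0.29.

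The mevalonate branch genes that were higher than with DMSO lost their calls without single libraries or without the guide of highest count. The value of HMGCS1 changed little without that guide. IDI1 had 38.6, 34.7 and 35.5 CPM in KO etoposide libraries, against 30.6, 30.4 and 31.1 CPM in KO DMSO libraries (0.24 ± 0.06, adjusted p = 0.0116), with 4 of 6 guides higher and single guides from −0.34 to 0.70. HMGCS1 had 48.5, 46.1 and 49.5 CPM in KO etoposide libraries, against 39.8, 44.7 and 40.9 CPM in KO DMSO libraries (0.20 ± 0.06, adjusted p = 0.0298), with 6 of 6 guides higher. MVK had 63.3, 66.5 and 64.9 CPM in KO etoposide libraries, against 57.6, 58.9 and 58.1 CPM in KO DMSO libraries (0.16 ± 0.05, adjusted p = 0.0379). No library of one group reached the other in any of the 3. At KO T0 the libraries had 32.2 to 37.0 CPM (IDI1), 45.3 to 50.1 CPM (HMGCS1) and 61.5 to 65.8 CPM (MVK). In each gene the KO etoposide libraries overlapped KO T0, and the KO DMSO libraries lay below both. Without the gene's guide of highest count, IDI1 was at 0.17 (adjusted p = 0.264), HMGCS1 at 0.19 (0.0992) and MVK at 0.06 (0.676), and 1 MVK guide of 5 was called on its own (0.30, adjusted p = 0.0424 over all guides). It was the 1 guide called of the 161 (0.621%, against 0.87% of all guides). IDI1 also lost its call without KO etoposide A (0.135) and in limma's test on the mean over guides (0.087). HMGCS1 lost it without KO DMSO A (0.146), KO DMSO C (0.102), KO etoposide A (0.0975) or KO etoposide C (0.134), and with only the libraries compared in the fit (0.0621). MVK lost it without any 1 of the 6 libraries (0.0519 to 0.157), in limma's test (0.242) and with only the libraries compared (0.0943).

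In WT cells the smallest p of the 28 was that of MVK, with 64.7, 68.8 and 67.4 CPM in WT etoposide libraries, against 63.2, 56.5 and 61.1 CPM in WT DMSO libraries (0.15 ± 0.05, adjusted p = 0.0674). MBTPS2, the Golgi protease gene, followed at 0.15 ± 0.05 (adjusted p = 0.144), with 6 of 6 guides higher. Guides against NPC1 were at −0.18 ± 0.08 in WT cells (adjusted p = 0.288) and at 0.11 ± 0.08 in KO cells (adjusted p = 0.502). In the sterol branch 0 of 11 genes were called in either genotype, and the largest value was that of LSS in WT cells (−0.12 ± 0.05, adjusted p = 0.183). Guides against SREBF1, whose transcript fell in etoposide media, were at 0.06 ± 0.06 in KO cells and 0.04 ± 0.06 in WT cells.

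**Figure D4:**
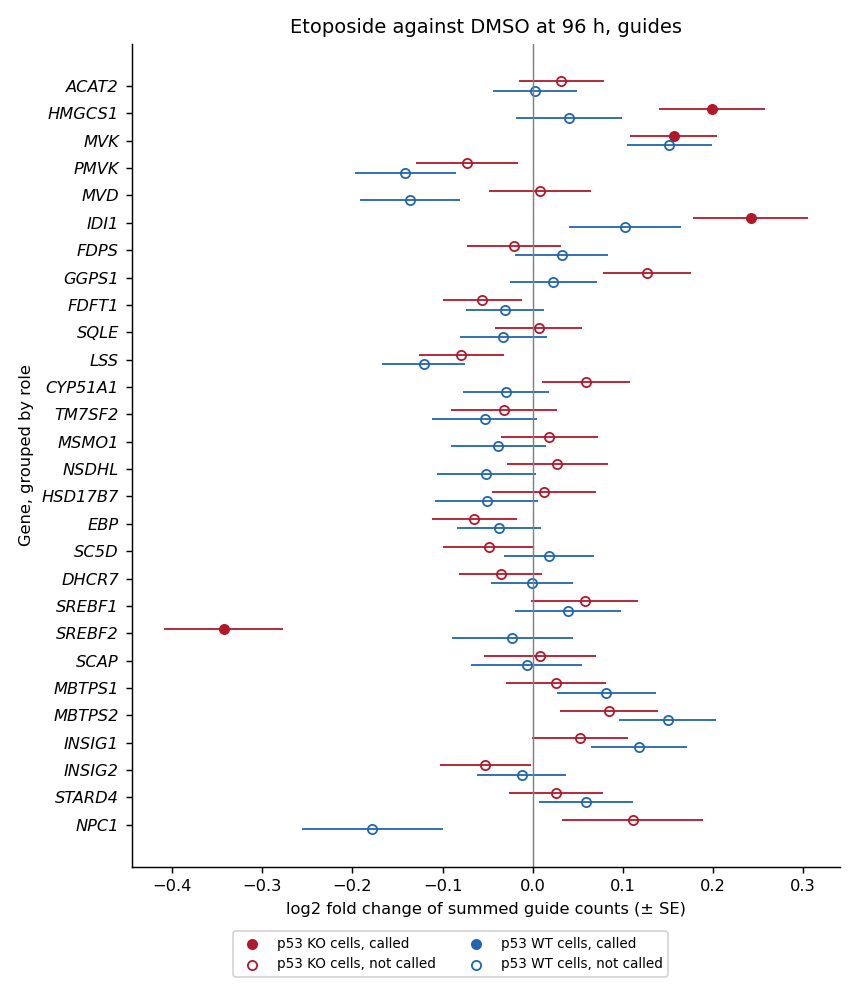
Log2 fold change (x axis, with bars of 1 SE) of summed guide counts of the 28 genes, etoposide against DMSO at 96 h, in p53 KO (red) and p53 WT (blue) cells. Filled points passed edgeR's quasi-likelihood test at an adjusted p under 0.05, and SREBF2 in KO cells (−0.34) is the one filled point left of 0.

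Whether these effects differed between genotypes was tested by an interaction term, KO over WT. Of the 28, 0 were called in edgeR's test, where 0.0578% of all genes were. In that test 2 members had an unadjusted p under 0.05, beside 1946 of all 19044 genes. SREBF2 had the smaller p (−0.32 ± 0.09, adjusted p = 0.164), with 5 of 5 guides lower and an interval of 2 SE on each side from −0.51 to −0.13. NPC1 was the other (0.29 ± 0.11, adjusted p = 0.318). DESeq2 and limma also called 0, and so did every fit with a library left out.

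Growth for 96 h without etoposide was compared with T0. In p53 KO cells guides against SREBF2 rose and those against HMGCS1 fell, with 0.425% of all genes called higher and 3.07% lower. In p53 WT cells guides against LSS rose and those against MVK fell, with 1.18% of all genes called higher and 5.43% lower. These comparisons use the same DMSO libraries as the etoposide comparisons, so a high or low DMSO group moves both in opposite directions. With non-targeting guides as the scale, 0 members were higher and 4 lower in KO cells, and 0 higher and 5 lower in WT cells.

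SREBF2 had 40.7, 38.5 and 36.6 CPM in KO DMSO libraries, against 31.1, 34.7 and 33.1 CPM in KO T0 libraries (0.22 ± 0.06, adjusted p = 0.0288), with 4 of 5 guides higher. HMGCS1 had 39.8, 44.7 and 40.9 CPM in KO DMSO libraries, against 45.3, 48.4 and 50.1 CPM in KO T0 libraries (−0.20 ± 0.06, adjusted p = 0.0308), with 6 of 6 guides lower. In WT cells MVK had 63.2, 56.5 and 61.1 CPM in DMSO libraries, against 73.6, 75.8 and 74.2 CPM in T0 libraries (−0.31 ± 0.05, adjusted p = 2.98e-07), with 5 of 5 guides lower. LSS had 82.2, 75.8 and 77.6 CPM in WT DMSO libraries, against 69.7, 70.1 and 71.5 CPM in WT T0 libraries (0.16 ± 0.05, adjusted p = 0.018), with 6 of 6 guides higher. The groups did not overlap in any of the 4. MVK kept its sign but lost its call without its guide of highest count (−0.17, adjusted p = 0.0848), and LSS lost it with scaling to the non-targeting guides (0.168) or without WT DMSO A (0.169), WT T0 A (0.0775) or WT T0 B (0.0766). SREBF2 lost its KO call with scaling to the non-targeting guides (0.0788), without its guide of highest count (0.0579) and without KO DMSO A (0.164), KO DMSO B (0.071), KO T0 A (0.203) or KO T0 C (0.0871). HMGCS1 lost it without KO DMSO A (0.161), KO DMSO C (0.113), KO T0 B (0.116) or KO T0 C (0.207). In limma's test on the mean over guides, SREBF2 was at 0.101 and HMGCS1 at 0.0542.

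Guides against 1 gene did not always move together. Of the 161 guides, 1 was called in KO growth (0.621%, against 0.614% of all 109367 guides) and 6 in WT growth (3.73%, against 1.56% of all guides). A guide against GGPS1, which makes geranylgeranyl diphosphate, was at −0.93 ± 0.21 in KO cells (adjusted p = 0.0085 over all guides) and −1.14 ± 0.21 in WT cells (adjusted p = 0.000259), the lowest of the 161 in each. The other 5 guides against GGPS1 lay between −0.27 and 0.19 in KO cells and between −0.27 and 0.15 in WT cells, and the summed counts did not pass in KO (−0.10 ± 0.05) or WT cells (−0.10 ± 0.05). For IDI1 2 of 6 guides were called lower in WT growth while 3 of 6 were higher without a call. For 0 of the 28 was the difference between KO and WT growth effects called by edgeR's test, where 0.0105% of all genes were. There were 4 members at an unadjusted p under 0.05 in edgeR's test, beside 1467 of all 19044 genes, and DESeq2 called 0. The smallest p was that of SREBF2 (0.24 ± 0.09, adjusted p = 0.477).

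**Figure D5:**
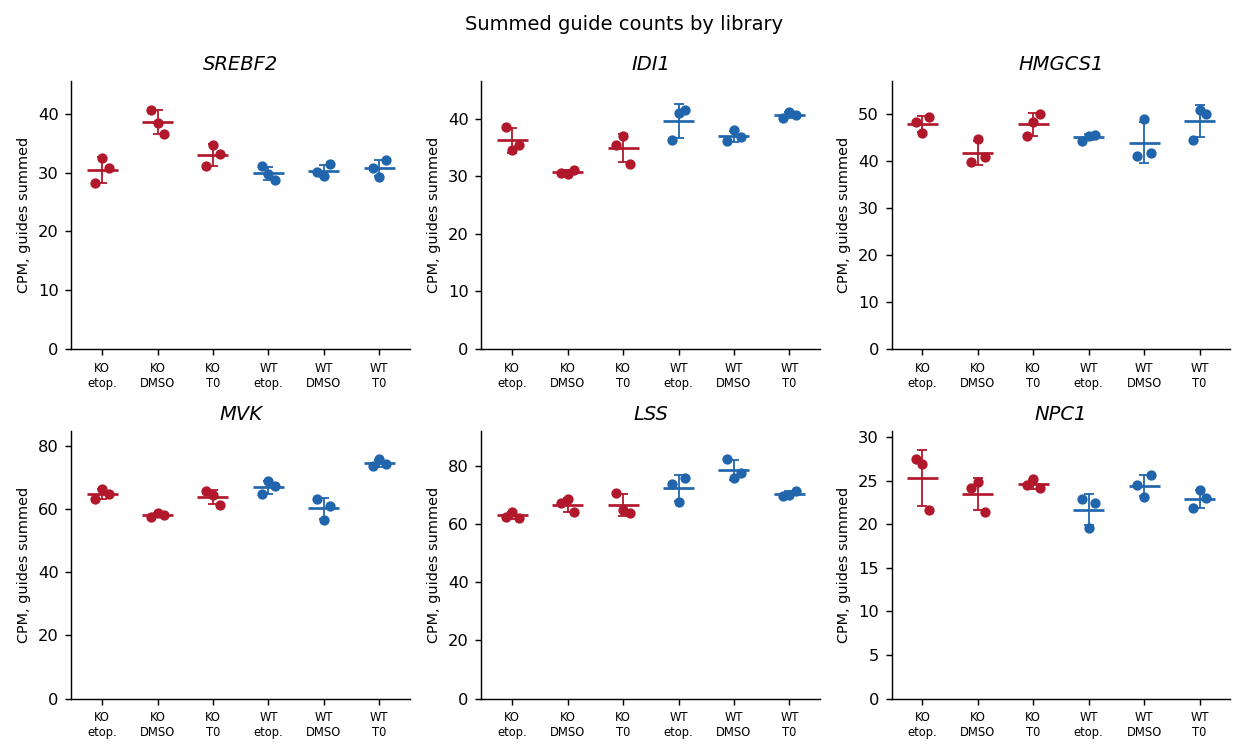
Summed guide counts (y axis, CPM) of 6 genes in each screen library, with the mean and SD (n = 3) per group, for p53 KO (red) and p53 WT (blue) cells. SREBF2 is high in the 3 KO DMSO libraries (36.6 to 40.7 CPM) and MVK is high in the 3 WT T0 libraries (73.6 to 75.8 CPM).

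At T0 the KO and WT cell pools already differed, with 1 member higher and 4 lower in KO cells, where 2.42% of all genes were called higher and 2.15% lower. With non-targeting guides as the scale the split was 3 higher and 2 lower. This comparison uses the same T0 libraries as the growth comparisons, so a high or low T0 group enters both. For MVK the mean at WT T0 was 74.5 CPM, against means of 58.2 to 67.0 CPM in the other groups. MVK had 65.8, 64.4 and 61.5 CPM in KO T0 libraries, against 73.6, 75.8 and 74.2 CPM in WT T0 libraries (−0.22 ± 0.05, adjusted p = 0.00165). NSDHL had 48.1, 46.0 and 41.7 CPM in KO T0 libraries, against 56.1, 51.7 and 50.3 CPM in WT T0 libraries (−0.22 ± 0.05, adjusted p = 0.00914), with 5 of 5 guides lower. IDI1 had 35.5, 37.0 and 32.2 CPM in KO T0 libraries, against 40.2, 41.2 and 40.7 CPM in WT T0 libraries (−0.22 ± 0.06, adjusted p = 0.0223). No KO library reached a WT library in these 3 genes. GGPS1 was lower, with 59.2, 59.9 and 58.1 CPM in KO T0 libraries, against 66.2, 67.7 and 64.4 CPM in WT T0 libraries (−0.16 ± 0.05, adjusted p = 0.0312). SC5D, a sterol desaturase gene, was higher, with 60.8, 57.8 and 65.2 CPM in KO T0 libraries, against 54.6, 56.3 and 53.5 CPM in WT T0 libraries (0.16 ± 0.05, adjusted p = 0.0435). Single guides differed in both directions. Of the 161, 4 were called higher (2.48%, against 1.4% of all guides) and 8 lower (4.97%, against 1.32% of all guides), over 8 genes, and SREBF1 had 1 of each (0.78 and −0.43).

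Several of these calls at T0 were lost in alternatives. NSDHL lost its call without KO T0 C (0.135) or WT T0 A (0.11), and MVK without its guide of highest count (−0.11, adjusted p = 0.308). IDI1 lost it with scaling to the non-targeting guides (0.0514), without its guide of highest count (0.0552) and without KO T0 A (0.0509), KO T0 C (0.195), WT T0 A (0.0567), WT T0 B (0.0939) or WT T0 C (0.0757). GGPS1 lost it with scaling to the non-targeting guides (0.102), without its guide of highest count (0.341) and without any 1 of the 6 libraries (0.0572 to 0.147). SC5D lost it without its guide of highest count (0.353) and without KO T0 A (0.0944), KO T0 C (0.278), WT T0 A (0.119), WT T0 B (0.0751) or WT T0 C (0.176). In limma's test on the mean over guides, NSDHL passed, while the adjusted p was 0.363 for MVK, 0.0825 for IDI1, 0.208 for GGPS1 and 0.566 for SC5D.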

How the data were processed

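The authors deposited guide counts for the screen and RNA counts per gene symbol, whole numbers with no normalization, and, per the file headers, a gene length score in bases. Bowtie2 and DESeq2 (screen) and hg19 and DESeq2 (RNA) are named, without versions, per the submitters' processing notes. For the RNA, aligner, annotation and strand setting were not given in the sources used here, so overlapping genes cannot be told apart. The authors' deposited table of KO against WT etoposide medium holds log2 fold changes, a Wald statistic score, a mean signal of scaled counts and p-values. Guides with few reads may have been left out before deposit, as no guide in the table averaged under 62.6 counts. No molecular identifiers are stated.

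Guide counts were summed per gene with at least 3 guides (19044 genes), and RNA genes were kept by edgeR's filterByExpr (15391). After TMM scaling, edgeR's quasi-likelihood test was run (edgeR 4.0.16, R 4.3.3), in 1 fit over all 18 screen libraries (12 residual degrees of freedom) and 1 over all 10 RNA libraries (5). Benjamini-Hochberg adjustment ran over all genes tested, or all guides for single guides. Genes were called at an adjusted p under 0.05. Levels are TMM-scaled CPM. Alternatives were DESeq2 1.42.0, limma 3.58.1 on mean log2 CPM of guides, other scalings and filters, a replicate block, fits of the compared libraries alone, and leaving out each library or the guide of highest count. All 28 genes were named, with full values where called, or, with no call, for the smallest p. The genes, lists and tests were chosen with earlier results of these data known.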

Additional observations from a re-analysis of the deposited data

Results flagged for a closer look

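NPC1 responded differently to etoposide medium of KO and WT donors, a difference of 0.65 ± 0.15 on the log2 scale by the interaction term (edgeR's quasi-likelihood test, adjusted p = 0.0208). In KO medium the value was 0.79 ± 0.10, with 42.0 and 40.0 CPM in KO etoposide medium, against 20.8 and 26.6 CPM in KO DMSO medium. In WT medium it was 0.13 ± 0.11, with 26.6 and 25.2 CPM in WT etoposide medium, against 23.3 and 24.0 CPM in WT DMSO medium. Of the 13 alternatives, 8 kept the call and 5, each without a single library, lost it, and the value stayed between 0.49 and 0.83. It was the 1 call among the 28 members, where 2.71% of all genes were called.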

How the results depend on the processing

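Of the 60 called member results, 609 alternative values were computed, 469 kept the call, 140 lost it and 0 reversed. Counts of members called were as follows. The share of all genes called in each alternative is not given beside them, so a changed count may also be a change over all genes. In screen growth of KO cells (2) DESeq2 gave 4, limma 0 and scaling to non-targeting guides 4, and in WT cells (2) that scaling gave 5 and leaving out the guide of highest count 1. For etoposide in KO cells (4) limma gave 2, only the compared libraries 2 and no guide of highest count 1, and in WT cells (0) DESeq2 gave 2, limma 1, non-targeting scaling 2 and no guide of highest count 1. At T0 (5) limma gave 1 and no guide of highest count 2. Between etoposide media (4) DESeq2 gave 2 and only the compared libraries 7, and for the interaction (1) no filter gave 3. Leaving out 1 library gave 0 to 1 (KO growth), 1 to 3 (WT growth), 1 to 3 (KO etoposide), 0 to 1 (WT etoposide), 1 to 4 (T0) and 0 to 0 (both screen interactions). For the RNA it gave 9 to 15 (KO etoposide medium, 13), 4 to 8 (WT etoposide medium, 12), 6 to 12 (KO DMSO medium, 9), 5 to 7 (WT DMSO medium, 8), 1 to 3 (between etoposide media), 0 to 4 (between DMSO media, 0) and 0 to 3 (interaction). A fit with 1 library in a group assumes that it varies like the other groups. Scaling to non-targeting guides moved the all-gene median by up to 0.06. Deviations from the group mean correlated at −0.05 to 0.17 between libraries of the same letter in the screen, and at −0.04 to 0.03 in the RNA. Between KO DMSO and KO T0 each letter matched its own best (0.104, 0.0626 and 0.172). Between WT etoposide and WT DMSO each did so too, at 0.0204 to 0.0363. Between KO etoposide and KO DMSO A alone did (0.101). The main fit has no replicate term. The replicate block gave 13 members in WT etoposide medium (12 without it) and left 4 in KO etoposide cells, and HMGCS1 between etoposide media missed the threshold (adjusted p = 0.0537). Of the alternatives, filterByExpr on guides removed none.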

Other observations

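Genes that use the products of the mevalonate branch were read from a list of 10. In growth without etoposide, guides against 2 of the 10 fell in KO cells, beside 3.07% of all genes, and guides against 5 fell in WT cells, beside 5.43% of all genes. The list medians were −0.09 in KO cells and −0.19 in WT cells. DHDDS, a subunit of the enzyme that makes dolichol precursors, fell in KO cells (−0.27 ± 0.05, adjusted p = 6.1e-05 by edgeR's quasi-likelihood test) and in WT cells (−0.34 ± 0.05, adjusted p = 4.56e-08). RABGGTB, a Rab prenyltransferase subunit, fell in KO cells (−0.25 ± 0.06). In WT cells its partner RABGGTA (−0.27 ± 0.06), the dolichol gene NUS1 (−0.29 ± 0.07), the farnesyltransferase subunit FNTB (−0.20 ± 0.05) and the coenzyme Q gene COQ2 (−0.22 ± 0.07) fell. The difference between the KO and WT growth effects was called for 0 of the 10 by edgeR, and its smallest adjusted p was 0.591 (RABGGTA). At an unadjusted p under 0.05 there were 2 of the 10, beside 1467 of all 19044 genes.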
